A study of Caenorhabditis elegans with 2 samples.

Results

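Introns of protein-coding genes on the 5 autosomes held 3117 of the 11633 regions that the authors listed for both replicates pooled. They came from ChIP-seq for tagged TLP-1 in L1 larvae of Caenorhabditis elegans. A region was a member if its summit, the base with the strongest enrichment, lay on chromosomes I to V inside a protein-coding gene. The summit also had to fall in no coding exon or untranslated region (UTR), and not between 500 bp upstream and 200 bp downstream of any protein-coding transcription start site (TSS). The members were 33.96% of the 9178 autosomal regions. Of them, 45 (1.44%, beside 2.75% of all autosomal regions) were in the list the authors thresholded by irreproducible discovery rate (IDR), a measure of how well replicates agree in rank. That list is the first 328 regions of the pooled list by signal, and its members need not rank high in each replicate.

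The libraries form 1 group of 2 biological replicates. Both were made from whole animals of strain OP321, pooled males and females, with the genotype unc-119(tm4063) III; wgIs321, in which wgIs321 is an inserted transgene for eGFP-tlp-1. The control was not analysed here, and there is no untagged group, so regions are compared with regions. Among the members, 0 lay in tlp-1 itself and 4 in unc-119, with signals from 14.3 to 23.1 and 0 thresholded. The lists hold no read counts, and the depth is therefore unknown. The signal of a region is the authors' value without a stated scale, and intervals are exact 95% intervals that cover counting error over regions only.

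Introns of worm genes are mostly short, and regulatory elements that switch genes on in particular cells lie in them as well as upstream of the gene. TLP-1 is a C2H2 zinc finger protein. GATA factors are another family of zinc finger proteins, which bind sites of the letters GATA and control epidermal and intestinal genes. In worms the intestinal factor ELT-2 is known for sites of the form TGATAA. In what follows a GATA site is the consensus WGATAR on either strand, which is TGATAA or the same word with A as its first letter, G as its last letter, or both, and an extended GATA site is CTTATCA on either strand, which reads TGATAAG from the other side and so always contains a GATA site.

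The sequences at the strongest intronic regions show the site that most of them share. Each line gives 30 bases of ce11 (RefSeq WBcel235), printed 5′ to 3′ on the strand that reads the site, around the GATA site nearest the summit, with the site in capitals. They are the first 12 by signal that hold such a site and lie on chromosomes II to V.

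F14E5.8, chrII:8421036-8421065, minus strand: atgatctatgttTGATAGagtgcatttgaa
nhr-97, chrIV:9762951-9762980, minus strand: caataaaatggcAGATAActaactgattaa
T13B5.9, chrII:1103928-1103957, plus strand: tatatgcaaaagTGATAAgaaaaactggta
C52E2.3, chrII:1851872-1851901, plus strand: ttatctagtgatTGATAAgcctcggtattc
T20B3.1, chrV:16816866-16816895, plus strand: cttgcaagagtgTGATAAgagtgataagat
mdt-4, chrII:4943000-4943029, plus strand: ggaatgactgttAGATAAtgtaagaagata
zip-5, chrV:13269484-13269513, minus strand: tctgtctacaagAGATAAaaacccaccaca
fdgt-2, chrII:8419163-8419192, plus strand: catagttttattAGATAAtcgtgaactaac
lap-1, chrIII:8400645-8400674, minus strand: ggaattgtgtgcTGATAAtgtagaaatacg
pkg-2, chrIV:8527672-8527701, minus strand: acgcaactgacaTGATAAtggaacaaaaat
lips-5, chrIV:11771194-11771223, minus strand: tttttccatcacTGATAAgatcatatacgt
mig-10, chrIII:8291858-8291887, minus strand: gataaaaattgcTGATAAcctgtcggtgtc

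Of these 12, 7 read TGATAA, 4 read AGATAA and 1 reads TGATAG. The base after the site was G in 4 of them, which makes the extended site. The line of T20B3.1 holds a second such site in its lower-case part.

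The strongest intronic regions lay in genes of many kinds. The highest was in intron 2 of F14E5.8, at positions 8420604 to 8421170 of chromosome II, and its signal was 124. It ranked 38 among all regions of replicate 1 and 26 in replicate 2. The neighbouring gene fdgt-2 held another in its intron 4, at 8418884 to 8419532, with a signal of 73.1 and ranks of 30 and 737. The nearest TSS to that second summit was that of F14E5.8 (965 bp), so either gene could be named for it. The nuclear hormone receptor gene nhr-97 came next to F14E5.8 in signal (85.5). Its region lay in intron 6, on chromosome IV at 9762805 to 9763124, and ranked 46 and 48 in the replicates. The regions in intron 1 of T13B5.9, intron 3 of C52E2.3 and intron 4 of T20B3.1 had signals of 81.3, 78.2 and 76.9. The Mediator subunit gene mdt-4 had one in intron 3 (75.1, ranks 71 and 66), and the bZIP factor gene zip-5 one in its last intron (74.0, ranks 43 and 41).

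Several hosts of the first 25 regions encode enzymes of metabolism. The leucine aminopeptidase gene lap-1 had a signal of 68.9 in intron 2, with ranks of 70 and 79. The fatty acid synthase gene fasn-1 had 66.3 in intron 1, only 439 bp from its TSS, and ranked 276 in replicate 1 and 47 in replicate 2. The lipase-related gene lips-5 had 60.02 and ranked 247 and 76. The acyl-CoA synthetase gene acs-13 had 50.3 in intron 1 and ranked 1056 in replicate 1 and 92 in replicate 2.

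Genes for signalling, cell shape and the matrix also held members. The cGMP-dependent protein kinase gene pkg-2 carried a pair of thresholded regions in the same intron of 6824 bp, with signals of 66.9 and 54.7. The Groucho-related gene lsy-22 likewise carried a pair in intron 1, of 11392 bp, with signals of 56.2 and 48.9. The tensin gene tns-1 had a signal of 61.7 in intron 20. For mig-10, which encodes an adaptor of cell migration and axon guidance, the signal was 56.1 (ranks 116 and 161). The anion transporter gene abts-1 had 52.4, the peroxidasin gene pxn-1 52.2, and the receptor tyrosine phosphatase gene dep-1 51.2. The remaining hosts of the first 25 regions were R12E2.8, tres-1, C50A2.3, ZK250.2 and E01G4.3, with signals from 50.2 to 59.2.

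**Figure D1:**
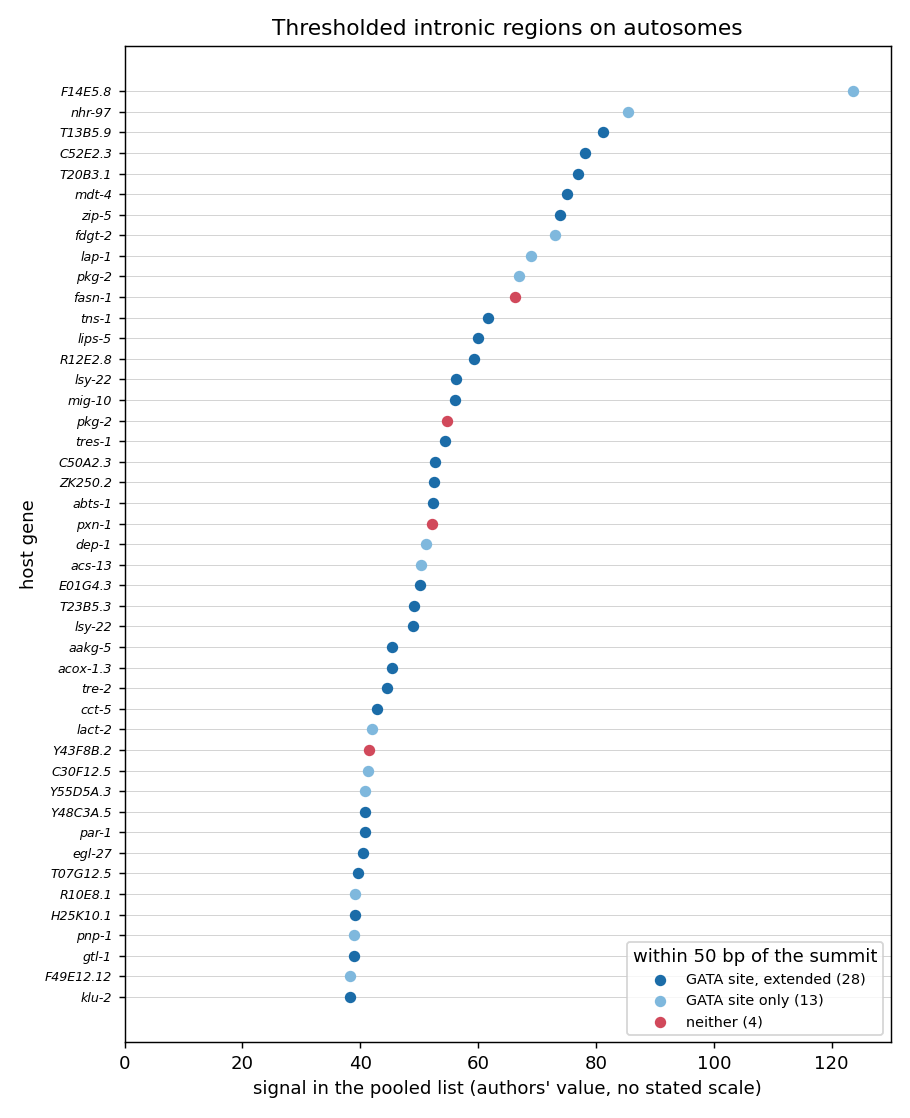
Signal in the pooled list (x axis, authors' value) for each of the 45 thresholded intronic regions, 1 point a region, named by host gene (y axis) and coloured by the sites within 50 bp of the summit. The points run from 38.2 to 124, and 41 of the 45 hold a GATA site.

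Most thresholded introns carried a GATA site at the summit. Within 50 bp of the summit, 41 of 45 thresholded members had one (91.1%, 95% interval 78.8 to 97.5), against 770 of the other 3072 members (25.1%, 23.5 to 26.6). By Fisher's exact test, two-sided and with Benjamini-Hochberg adjustment over 9 tests as for all p-values here, the odds ratio was 30.6 (95% interval 11.03 to 118, adjusted p = 1.08e-19). Windows of the same 101 bp around positions every 200 bp in all autosomal introns that meet the rule held one in 18.01% of 124356 cases. The extended site was in 28 of 45 thresholded members (62.2%, 46.5 to 76.2) and in 139 of the others (4.52%), with an odds ratio of 34.8 (95% interval 17.8 to 69.1; adjusted exact p = 1.23e-24). It was in 1.27% of the intronic windows. That GATA sites mark the peaks of this series was known when the tests were chosen, so these values describe how far introns share it.

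The GATA sites lay close to the summit and faced either way. The site nearest the summit was centred at a median of 15.5 bp from it, and 29 of the 41 were within 25 bp. In most regions there was more than 1 site: 27 of the 41 had at least 2 and the largest number was 4, as in mig-10, C52E2.3, acs-13 and egl-27. The nearest site read on the strand of the host gene in 22 regions and on the opposite strand in 19. Its letters were TGATAA in 29 (70.7%), AGATAA in 10 and TGATAG in 2. Among the 770 other members with a site, TGATAA made up 54.2%. The 4 thresholded members without a GATA site were those in fasn-1, pxn-1, Y43F8B.2 and the second region of pkg-2, with signals from 41.5 to 66.3. The windows of fasn-1 and pxn-1 were rich in GC, at 52.5% and 51.5%.

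**Figure D2:**
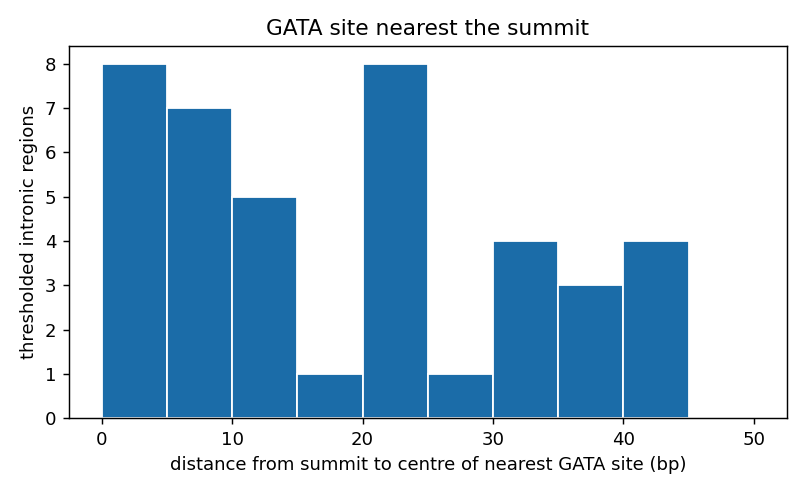
Number of thresholded intronic regions (y axis) by distance in bp from the summit to the centre of the nearest GATA site (x axis, bins of 5 bp), for the 41 with a site within 50 bp. The median distance is 15.5 bp.

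No difference in the share with a GATA site was detected between thresholded introns and thresholded promoters. Of the 108 thresholded autosomal regions in promoters, 99 had one (91.7%, 84.8 to 96.1), against the 91.1% in introns. The odds ratio was 0.932, with a 95% interval from 0.243 to 4.38 (adjusted exact p = 1), so these numbers allow a difference in either direction. In the list of replicate 1 alone the site was less frequent in introns, at 72.7% against 88.5% (odds ratio 0.345, adjusted exact p = 0.0480). With no test, intronic regions 46 to 100 by signal (30.1 to 37.6) held a GATA site in 74.5% and the extended site in 38.2%. Promoter regions 101 to 200 (30.5 to 38.8) held them in 85% and 47%. Promoter regions 201 to 500 (21.4 to 30.5), also with no test, held them in 56.3% and 27.3%. Their signals covered those of intronic regions 101 to 200 (24.8 to 29.9), with 60% and 20%. They also covered most of the range of intronic regions 201 to 500 (20.4 to 24.7), with 33.7% and 8.67%.

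The share of introns with a GATA site was lower at lower signal. It was 74.5% in members 46 to 100 by signal, 60% in the next 100, 33.7% in members 201 to 500 and 18.9% from member 2001 on, close to the 18.01% of all intronic windows. The share with the extended site was 62.2% in the first 45, and 38.2%, 20%, 8.67% and 1.97% in the same later steps. In replicate 1 alone, 33 of the first 45 intronic regions had a GATA site (73.3%), and in replicate 2 alone 39 did (86.7%). From region 2001 on the shares were 20.1% and 20.3%.

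**Figure D3:**
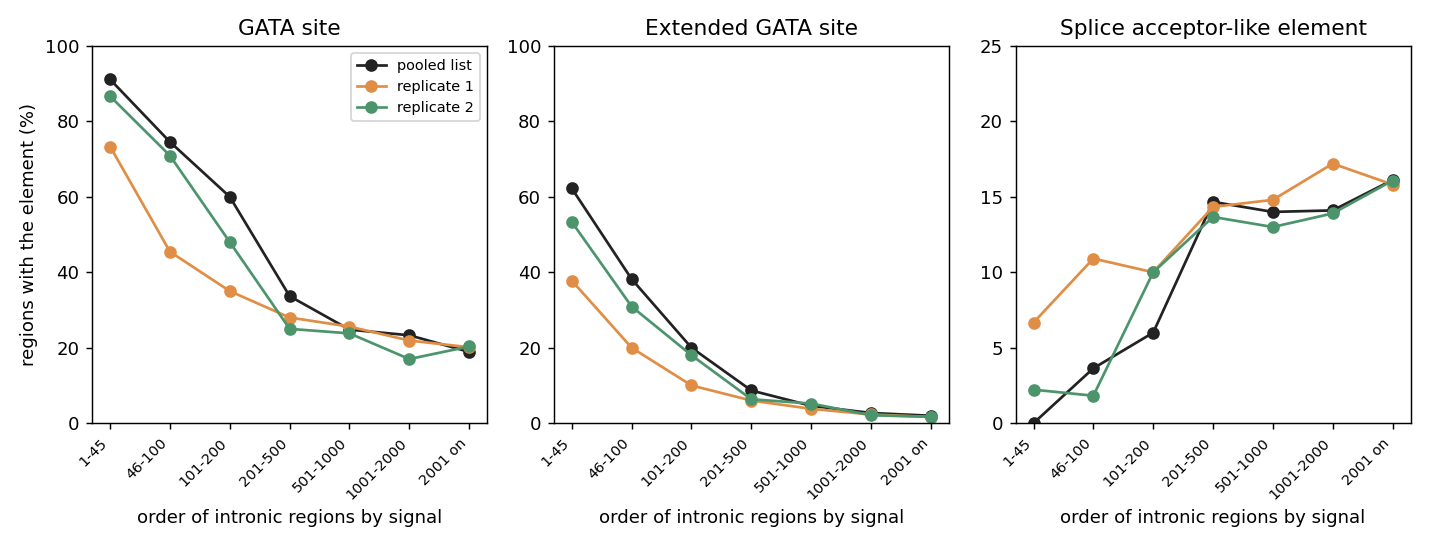
Percentage of intronic regions with each element within 50 bp of the summit (y axes; the third panel ends at 25%) by their order in signal (x axes), for the pooled list and for the lists of both replicates. Both kinds of GATA site are most frequent in the first 45 regions of every list, and in the pooled list the GATA site goes from 91.1% there to 18.9% in the last step.

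A splice acceptor-like element was not found within 50 bp of the summit at the thresholded introns. The letters TTTTCAG, a form of the sequence that ends worm introns, occurred on either strand within 50 bp of the summit in 0 of 45 thresholded members, which allows a share of up to 6.67% by the limit of 3 counts and 7.87% by the exact 95% interval. It was in 443 of the other 3072 members (14.4%) and in 14.7% of all intronic windows. The odds ratio was 0.0652 after 0.5 was added to each cell (adjusted exact p = 0.00331). Mean GC content of the windows also differed between the groups. It was 36.7% ± 5.54 (SD, n = 45 regions) in the thresholded members and 27.2% ± 7.48 (SD, n = 3072 regions) in the others. In all intronic windows it was 32.98%. With windows of 30 to 45% GC alone, the shares with the element were 0% of 40 and 10.3% (adjusted exact p = 0.0592). The call was also lost within 25 bp of the summit, with the stricter threshold and in replicate 1 alone, where 6.82% of 44 regions had the element. The part of base composition was not tested beyond this. Summits within 50 bp of the end of their own intron were 2.22% of the thresholded members, 6.15% of the others and 14.1% of the intronic positions. The part of this distance was not tested, and a match to the letters need not be the end of an intron. The E-box CACGTG, with no test, was in 4 of 45 thresholded members, those of mdt-4, Y43F8B.2, Y48C3A.5 and pnp-1, and in 36 of the others (1.17%).

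None of the 3 tests of where in the gene the summit fell passed between thresholded and other introns, though other settings made a pair of them pass. The first intron of the host transcript held 11 of the 45 (24.4%) and 802 of the other 3072 members (26.1%; odds ratio 0.916, 95% interval 0.417 to 1.86, adjusted exact p = 0.974). Introns of at least 1000 bp held 27 of 45 (60%) and 1486 of the others (48.4%; odds ratio 1.60, 95% interval 0.846 to 3.099, adjusted exact p = 0.201). With 1 region kept per host gene the odds ratio was 2.06 (adjusted exact p = 0.0484), and with the stricter threshold 0.680. A protein-coding TSS lay within 2000 bp of 31 of 45 (68.9%) and 64.3% (odds ratio 1.23, 95% interval 0.632 to 2.51, adjusted exact p = 0.821). With the first 1000 pooled regions as threshold the odds ratio was 1.63 (adjusted exact p = 0.0106). The last intron of the transcript, given with no test, held 2 of the 45 (4.44%), those of zip-5 and R12E2.8, against 15.9% of the other members in an intron of a single transcript and 16.2% of all intronic windows. The intron length had a median of 1652 bp in the thresholded members and 972 bp in the others, with quartiles of 418 and 6134 bp and of 530 and 2430 bp. The longest was intron 4 of Y48C3A.5, at 19927 bp, and the shortest the last intron of R12E2.8, at 83 bp, which is shorter than the region itself.

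The highest signals were found in short introns, a pattern seen after the values were known and given with no test. The first 9 thresholded members by signal, from F14E5.8 to lap-1, all lay in introns under 1000 bp. The 18 in such introns ran from 38.3 to 124 with a median of 64.5, and the 27 in longer ones from 38.2 to 66.9 with a median of 45.4. The ranges overlap. The pair in pkg-2 and the region of mig-10, in introns of 6824 and 11678 bp, were among the higher ones of the long class.

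**Figure D4:**
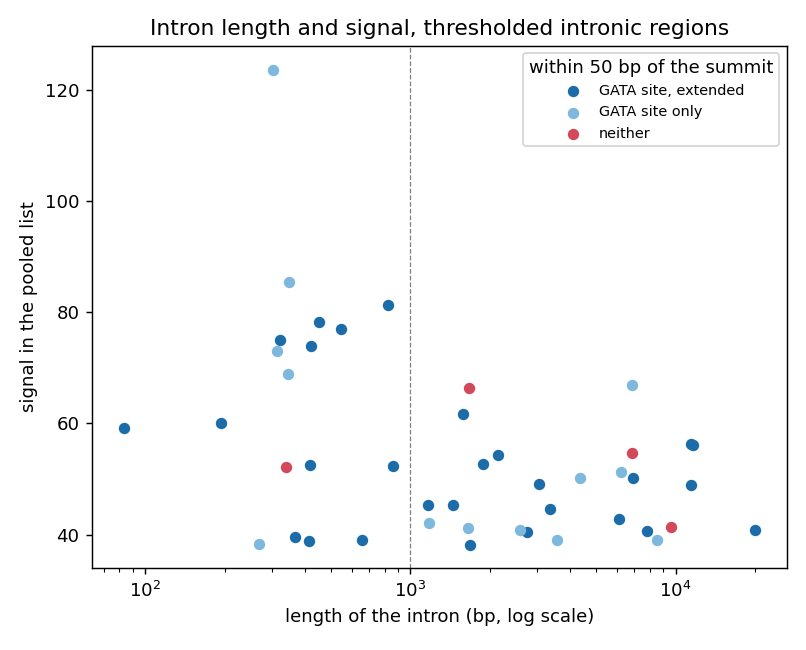
Signal in the pooled list (y axis) against the length of the intron in bp (x axis, log scale) for the 45 thresholded intronic regions; the dashed line marks 1000 bp. All points above 66.9 lie to the left of the line.

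The host's own TSS was at a median distance of 2422 bp from the thresholded summits, and the nearest protein-coding TSS at 1306 bp. That nearest TSS belonged to the host in 40 of the 45 regions, which takes in TSSs of alternative transcripts. The other 5 were those of fdgt-2, R12E2.8, acox-1.3, par-1 and klu-2. In egl-27 the summit lay 7861 bp from the TSS of the transcript used and 478 bp from another TSS of the same gene. Of the 43 host genes, 1 also had a thresholded region in a promoter of its own, zip-5.

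Introns were in the thresholded list less often than all other positions pooled. The 45 made up 1.44% of the 3117 members (95% interval 1.05 to 1.93), below the 2.75% of all 9178 autosomal regions and the 3.42% of the 6061 not in introns (odds ratio 0.414, 95% interval 0.292 to 0.576, adjusted exact p = 3.18e-08). Promoters stood at 5.29%, intergenic positions at 2.76%, UTRs at 2.16%, other genes at 2.06% and coding exons, below introns, at 0.889%. The median signal was 16.1 in introns and 16.6 elsewhere, and 82.3% of the members had a signal below 20. By chromosome, the thresholded share of the members was 1.64% on I, 2.52% on II, 0.694% on III, 1.46% on IV and 0.995% on V, beside 2.55%, 3.99%, 2.28%, 2.25% and 2.85% of all regions there. Introns that meet the rule cover 24.9 Mb, 30.2% of the autosomes, and held 113 to 148 members per Mb, with the highest density on chromosome IV.

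Support in both separate replicates was somewhat less frequent for introns than for all other positions pooled. A region of both replicate lists overlapped 1581 of the 3117 members (50.7%), against 55.02% of the other autosomal regions and 53.6% of all of them (odds ratio 0.841, adjusted exact p = 2.07e-04). By class it was 56.5% in promoters, 56.7% in intergenic positions and 53.9% in other genes, and below introns in UTRs (49.7%) and coding exons (41.6%). With 1 region kept per host gene the intronic share was 53.5% and the call was lost (odds ratio 0.942, adjusted exact p = 0.367). Of the rest, 600 members were overlapped in replicate 1 alone, 880 in replicate 2 alone and 56 in neither. Among the thresholded members 43 of 45 were overlapped in both, which is no independent test because IDR uses both lists.

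Some thresholded introns ranked far apart in the replicates. The median rank was 229 in replicate 1, over the 43 with a region there, and 143 in replicate 2. Of the 45, 29 and 35 had a rank within the first 328, the size of the thresholded list. Both ranks were within it for 21, and neither for 2. Replicate 2 gave the better rank in 25 of the 43 regions ranked in both. The same counts for thresholded regions outside introns are not given, and whether introns differ from them was not tested. The worst rank in replicate 2 was 1774, at pnp-1, while in replicate 1 the region of R10E8.1 ranked 11300. Those of T07G12.5 and F49E12.12 had no overlapping region in replicate 1 and ranked 145 and 152 in replicate 2. The TRPM channel gene gtl-1 ranked 7479 in replicate 1 and 142 in replicate 2.

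**Figure D5:**
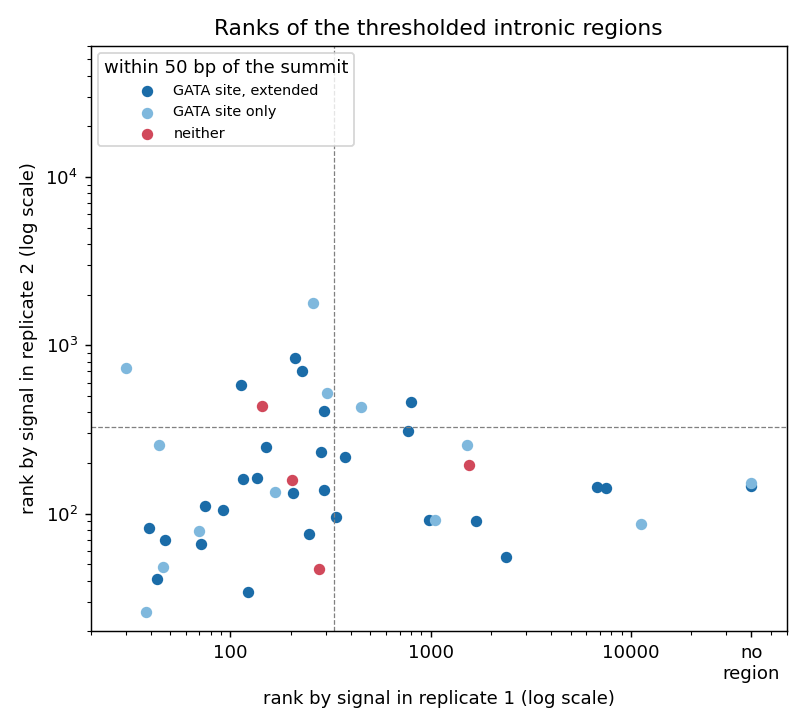
Rank by signal of the overlapping region in replicate 1 (x axis) and in replicate 2 (y axis), both on log scales, for the 45 thresholded intronic regions; dashed lines mark rank 328, and points at "no region" have none in replicate 1. The lower left corner holds 21 regions, and the points far to the right are regions strong in replicate 2 alone.

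The values on either side of the threshold were close. The 3 lowest members inside it, in gtl-1, F49E12.12 and klu-2, had signals of 38.9, 38.3 and 38.2. The 3 just outside, at 37.6, 37.6 and 37.5, lay in the epidermal GATA factor gene elt-1, in tent-5 and in the posterior Hox gene nob-1. Their ranks in the replicates were 950 and 368 for elt-1, 556 and 363 for tent-5 and 902 and 337 for nob-1, beside 800 and 463 for klu-2. The region of elt-1 held no GATA site within 50 bp of its summit, and those of tent-5 and nob-1 did.

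Members were spread thinly over 2135 host genes. Of these 1538 (72.0%) held 1 member, 383 held 2 and 214 held at least 3. The gene with the most was the potassium channel gene egl-23, on chromosome IV, with 11 members in 4 introns. It was followed by eps-8, for an actin-capping protein of the intestinal brush border (10), by Y37A1A.4 and the cotransporter gene kcc-2 (9 each), and by the phosphatase gene vhp-1, the bHLH factor gene hlh-30, Y57G11C.42 and jac-1 (8 each). None of the members in these 8 genes was thresholded, and the highest signal among them was 37.2, in vhp-1. The genes were long, from 17160 to 33532 bp. The median gene length was 5528 bp for all hosts and 13885 bp for those with at least 3 members, and length was not allowed for.

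In the lists of Wnt genes, T blast lineage and tail, Hox genes and cofactors, GATA factors and chromatin regulators, egl-27 alone hosted a thresholded member. Over all 17242 autosomal protein-coding genes, 12.4% hosted a member and 0.249% a thresholded one. Beside a share that low, a count of 0 or 1 in lists this short is not read as a result. The highest member per host, over all genes, had a median signal of 16.6. The same median was 17.1 for Wnt genes, 18.7 for the T blast lineage and tail, 18.98 for Hox genes and cofactors, 20.7 for chromatin regulators and 27.6 for GATA factors, over 4 to 8 hosts each. Of the 16 autosomal genes listed for the T blast lineage and tail, in which TLP-1 acts, 5 hosted a member and 1 a thresholded one. That was egl-27, whose protein is related to the NuRD complex and carries a GATA-type zinc finger. Its region in intron 10 had a signal of 40.5 and ranked 6786 in replicate 1 and 143 in replicate 2. It was also the 1 thresholded host of 8 GATA factor genes and of 19 chromatin regulators, which hosted members in 4 each. Of 24 Wnt signalling genes 8 hosted a member and 0 a thresholded one. The highest signal among them was 22.5, in the receptor gene cam-1, before the kinase gene lit-1 (19.2) and the TCF gene pop-1 (18.7). Of 8 Hox genes and cofactors 4 did, led by nob-1 and mab-5 (20.7).

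The lists of tissue genes held 0 thresholded hosts. With 9 to 28 autosomal genes each, beside 0.249% of all autosomal genes, that is not read as a result. The median of the highest signal per host ran from 15.1 for neuronal identity factors and 15.2 for pharynx genes to 19.5 for seam and epidermal regulators and 20.8 for intestine genes. The number of members per host was not allowed for, and it was 21 in 7 intestine hosts and 3 in 3 pharynx hosts. Of 13 seam and epidermal regulators 6 hosted a member, with elt-1 first, then blmp-1 (22.8) and ceh-16 (19.7). Of 18 intestine genes 7 did, namely 21 members with 0 thresholded. Their highest signals were 33.2 in erm-1, for the ezrin-like protein of the gut lumen, 32.9 in eps-8 and 32.6 in the intermediate filament gene ifb-2. The last ranked 21036 in replicate 1 and 374 in replicate 2 and held the extended GATA site. Of 21 body wall muscle genes 7 hosted a member, with the paramyosin gene unc-15 first (26.4), and of 9 pharynx genes 3 did (highest 15.8, in tbx-2). Of 19 pan-neuronal genes 8 did, led by unc-13 (22.7), and of 13 neuronal identity factors 5 did (highest 18.5, in che-1). Of 28 ion channel genes 14 did, with a highest signal of 18.3 in tax-2.

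Other lists had a thresholded host each or none. Among 21 adhesion and guidance genes 11 hosted 30 members. The one thresholded was mig-10, and rig-6 (33.95) and sax-7 (28.6) followed. Among 28 nuclear hormone receptors 12 hosted a member, with nhr-97 thresholded and nhr-31 (30.7) and nhr-34 (27.3) next. Heterochronic genes (5 of 8, highest 22.8 in blmp-1), genes of the insulin pathway and L1 arrest (4 of 13, highest 23.7 in daf-16) and E-box and T-box factors (5 of 21, highest 36.1 in hlh-30) had 0 thresholded hosts. Genes differ in how much intron they have, and 0.249% of all autosomal genes hosted a thresholded member, so these shares and counts do not compare lists.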

How the data were processed

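Regions came from the authors' deposited ce11 lists, 1 per replicate (28183 and 23975 regions), 1 pooled (11633) and 1 thresholded by IDR (328). Per the deposited file lists, each ce11 replicate list was made from that replicate's alignments and 1 further file. The signal and the -log10 q values in them are the authors' own, and regions were ordered by signal. No aligner, peak caller or IDR threshold is given in the sources used here. By a check, the thresholded list holds the first 328 pooled regions by signal. Summits were placed on Ensembl release 115 (WBcel235, the build of ce11), and sequence was read from RefSeq WBcel235. The host transcript was that with the longest coding sequence among those with the summit in an intron, and 15 members lay in no intron of a single transcript. A replicate supported a region by an overlap of at least 1 bp, and its rank is that of the overlapping region of highest signal.

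Shares were compared with two-sided Fisher's exact tests, adjusted by Benjamini-Hochberg over 9 tests at 0.05. Shares have exact (Clopper-Pearson) intervals and odds ratios exact conditional ones. Regions are not replicates. The tests were checked on simulated data. The members and the 17 gene lists were chosen with earlier results of these data known. As written, 5 listed names (elt-5, nca-1, opt-2, psa-1 and psa-4) matched no gene name and were left out of the counts. Whether they are other names of annotated genes was not checked. Named genes were the hosts of the first 25 thresholded members, up to 3 per list, the 8 hosts with most members, and those at the threshold or with the worst ranks; genes named as the exceptions or extremes of a count were chosen after their values were seen. Tests ran in scipy 1.17.1 under Python 3.11.15, tables in pandas 2.3.3 and numpy 2.4.6, and plots in matplotlib 3.10.9.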

Additional observations from a re-analysis of the deposited data

How the results depend on the processing

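Under 15 alternatives, 94 values kept their direction and their side of the threshold, or stayed within 1.5 times for counts, and the 18 that did not are given here. The alternative of 1 summit per interval left every value as it was (3117 members, 45 thresholded), so the values it kept say nothing about stability. Both comparisons of GATA sites between thresholded and other introns passed in every alternative run, with odds ratios from 6.80 to 42.3 and from 16.01 to 40.8, and so did the lower thresholded share of introns (0.392 to 0.581). With the list of 1 replicate in place of the pooled list, the members numbered 6541 (replicate 2) and 7811 (replicate 1).

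The lower share of the acceptor-like element no longer passed within 25 bp of the summit (odds ratio 0.137) or with the first 164 regions as threshold (0.127). It was also lost with 30 to 45% GC (0.107, an alternative added after the data were seen) and in replicate 1 alone (0.391, against 0.121 in replicate 2 alone). The range was 0.0641 to 0.391 over 12 alternatives. The element was found in 6.82% of 44 regions in replicate 1 alone and in 2.13% of 47 in replicate 2 alone. It was also found in 2.45% of 163 with the first 1000 regions as threshold, and in 11.1% of 45 within 100 bp of the summit. The lower replicate support of introns was lost with 1 region per host gene (0.942). GATA sites in introns against promoters turned with 1 region per host gene (1.21), with 30 to 45% GC (1.28) and with the promoter window of 1000 and 500 bp (1.08), and passed without replicate 2 (0.345, against 0.634 without replicate 1); the range was 0.148 to 1.28. First introns turned with the first 1000 regions as threshold (1.09) and with the wider promoter window (1.18). Long introns passed with 1 region per host gene (2.06) and turned with the first 164 regions (0.680). The TSS within 2000 bp passed with the first 1000 regions (1.63) and turned with 30 to 45% GC (0.959) and without replicate 2 (0.978, against 1.91 without replicate 1). The causes were not tested. With 45 thresholded members, only large differences could be detected.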
